A study of Mus musculus with 6 samples.

Results

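The genes described here are 9 neutrophil genes of the mouse DRG: *S100a8*, *S100a9*, *Retnlg*, *Csf3r*, *Cxcr2*, *Mmp8*, *Camp*, *Ngp*, and *Ltf*. They were picked by symbol, as genes for calprotectin, granule proteins, and receptors of neutrophils, and each was found in 1 row of the 48440 rows of the gene count table. All 9 passed the filter on low counts that left 18593 genes for testing. RNA sequencing was done on DRGs of wild-type male mice after microinjection into the L3/4 DRGs of 1 side. In the control group, 3 libraries came from DRGs given AAV5-*Gfp*, a viral vector for the reporter gene *Gfp*. In the other group, 3 libraries came from DRGs given AAV5-*V1* together with AAV5-*V2* (AAV5-*V1+V2*), vectors for both variants of *NIS-lncRNA*, a long noncoding RNA of the DRG. Both groups thus shared the AAV5 vector and the microinjection, and the virus preparations differed along with the transcripts. The series text gives both 4 and 5 weeks after microinjection as the time of these DRGs. The promoter of the vectors, the age of the mice, and the number of mice in each library were not given in the sources used here. If a library was not a separate set of mice, the p-values measure only the spread between libraries, which may be technical.

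Neutrophils are short-lived granulocytes that are made in bone marrow, circulate in blood, and enter tissue along chemokine gradients. Their granules are filled in order during maturation: azurophil granules with myeloperoxidase and elastase come first, specific granules with lactoferrin and cathelicidin next, and gelatinase granules last. The RNAs for most granule proteins are therefore highest in maturing cells of the marrow, whereas calprotectin and the chemokine receptor *Cxcr2* are still transcribed in mature cells. In the DRG, neutrophils are sparse without injury and are known to collect around the ganglion after nerve damage.

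The 9 genes lie on chromosomes 1, 3, 4, 9, and 16. In GRCm38 (GENCODE M21), *S100a8* (chr3:90668978-90670035) and *S100a9* (chr3:90692632-90695721) are 22.6 kb apart. *Camp* (chr9:109847379-109849617), *Ngp* (chr9:110419747-110423012), and *Ltf* (chr9:111019271-111042767) stand in this order on chromosome 9, with 570.1 kb between *Camp* and *Ngp* and 596.3 kb between *Ngp* and *Ltf*. *Mmp8* (chr9:7558456-7568485) is 102.28 Mb from *Camp* on the same chromosome. *Csf3r* (chr4:126024550-126044440), *Cxcr2* (chr1:74153989-74161246), and *Retnlg* (chr16:48872621-48874496) stand alone. The letters TTGCNNAA, a core of C/EBP sites, and GAGGAA, a core of PU.1 sites, were searched on both strands in the 250 bases before each RefSeq start. Both factors are known regulators of granulocyte genes. TTGCNNAA was found at 5 of the 9 genes (*Ltf*, *Mmp8*, *Ngp*, *Retnlg*, and *S100a9*), where 9.56% of 32851 promoters hold it. GAGGAA was found at 5 genes (*Csf3r*, *Cxcr2*, *Ltf*, *Mmp8*, and *S100a8*), where 23.3% of all promoters hold it. The only match at *Csf3r*, 86 to 81 bases before its RefSeq start, lies inside the gene as GENCODE annotates it, from 109 bases farther upstream. The matches nearest to the RefSeq start at *Ngp* and *S100a8* also lie inside their GENCODE genes. No match of one motif overlapped a match of the other in these promoters. Such a match describes letters and not binding. The stretches below, from RefSeq on GRCm38.p6, show a TTGCNNAA match at 3 of the granule genes, and a GAGGAA match at a receptor gene, with matches in capitals. Matches on the opposite strand are printed as their reverse complement, such as TTCCTC. Each is 150 bases long, is written 5′ to 3′ along the gene, and ends before its first annotated transcribed base.
*Mmp8*, chr9:7558279-7558428 (plus strand): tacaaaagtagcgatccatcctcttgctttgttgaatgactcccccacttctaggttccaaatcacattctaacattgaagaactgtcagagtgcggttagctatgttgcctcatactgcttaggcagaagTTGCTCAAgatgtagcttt
*Ltf*, chr9:111019121-111019270 (plus strand): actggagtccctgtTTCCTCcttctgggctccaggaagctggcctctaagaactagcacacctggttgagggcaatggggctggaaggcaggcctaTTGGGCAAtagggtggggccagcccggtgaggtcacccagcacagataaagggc
*Ngp*, chr9:110419597-110419746 (plus strand): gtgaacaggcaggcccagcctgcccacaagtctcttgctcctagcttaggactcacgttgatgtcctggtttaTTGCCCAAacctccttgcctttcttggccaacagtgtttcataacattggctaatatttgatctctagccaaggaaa
*Cxcr2*, chr1:74153839-74153988 (plus strand): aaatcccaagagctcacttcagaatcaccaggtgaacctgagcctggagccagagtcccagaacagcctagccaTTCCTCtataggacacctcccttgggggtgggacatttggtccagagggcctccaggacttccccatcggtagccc

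The libraries were of even depth. Totals were between 32618252 and 34764282 counts for AAV5-*Gfp* and between 32025612 and 34228594 for AAV5-*V1+V2*, and the 9 genes together took 4556 to 5040 and 6612 to 13161 of these counts. Levels are given as CPM, that is, counts relative to the library size after TMM scaling, in which 1 count was worth between 0.0289 and 0.032 CPM. Values listed by library follow the order of replicates 1, 2, and 3. Differences are log2 fold changes of AAV5-*V1+V2* over AAV5-*Gfp* from edgeR's quasi-likelihood model, with Benjamini-Hochberg adjustment across the 18593 genes and a threshold of 0.05. AAV5-*V1+V2* replicate 1 was the highest library for each of the 9 genes, and their fold changes are therefore also given without it. In bulk ganglia, fewer or more cells of a type and less or more RNA per cell cannot be told apart.

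*S100a8* and *S100a9* encode the subunits of calprotectin, the calcium-binding protein that fills the cytosol of neutrophils and is released as an alarm signal. AAV5-*Gfp* gave 854, 944, and 895 counts of *S100a8*, and AAV5-*V1+V2* gave 2336, 1216, and 1370. *S100a9* had 1274, 1393, and 1353 counts in controls against 3556, 1836, and 1971. In both genes the AAV5-*Gfp* libraries were close together, each treated library was above them, and replicate 1 was far above the other two. *S100a8* was at 27.5 ± 1.13 CPM in controls and 49.2 ± 19.0 CPM after AAV5-*V1+V2* (mean ± SD, n = 3 each), a log2 fold change of 0.84 with a 95% interval from 0.28 to 1.40. *S100a9* was at 41.0 ± 2.06 and 73.6 ± 29.9 CPM (n = 3 each), a log2 fold change of 0.84 with an interval from 0.26 to 1.43. Neither passed the threshold, with adjusted p-values of 0.0541 and 0.0598 in edgeR's test. Across 16 alternative analyses, both stayed positive, and the adjusted p-values ranged from 0.00367 to 0.154 and from 0.0044 to 0.162. Without AAV5-*V1+V2* replicate 1, the log2 fold changes fell to 0.48 and 0.46 while the adjusted p-values went below the threshold, to 0.00572 and 0.0044.

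**Figure D1:**
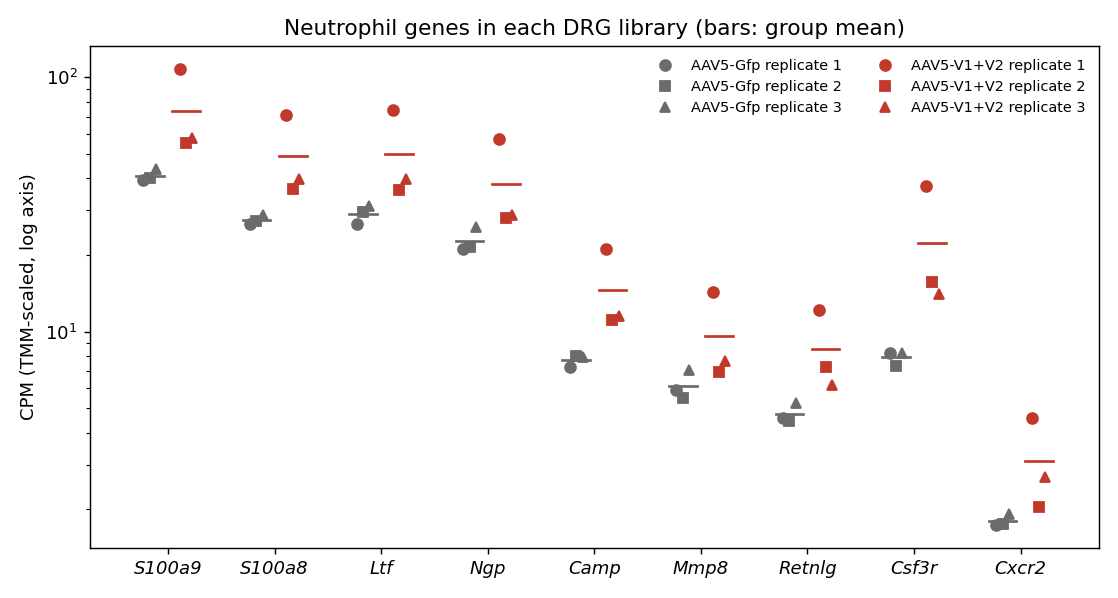
Level of each of the 9 neutrophil genes in CPM after TMM scaling (log axis) in the 6 libraries, with AAV5-*Gfp* in gray, AAV5-*V1+V2* in red, one symbol shape for each replicate number, and a bar at each group mean (n = 3). AAV5-*V1+V2* replicate 1 is the highest library for all 9 genes, and the groups touch only in *Mmp8*, where replicate 2 of AAV5-*V1+V2* (6.94 CPM) lies under replicate 3 of AAV5-*Gfp* (7.05 CPM).

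In the granule genes AAV5-*V1+V2* replicate 1 was again the highest library. *Ltf* encodes lactoferrin, an iron-binding protein of specific granules, and had 853, 1020, and 973 counts against 2441, 1194, and 1364. *Ngp*, neutrophilic granule protein, had 681, 745, and 803 counts against 1875, 933, and 989. *Camp* encodes cathelicidin, a precursor of an antimicrobial peptide, and had 234, 279, and 247 counts against 696, 370, and 396. For these 3 genes no library of one group overlapped the other, and the lowest AAV5-*V1+V2* library was 1.15 times, 1.09 times, and 1.38 times the highest AAV5-*Gfp* library. *Mmp8*, which encodes the collagenase of neutrophils, had 190, 190, and 220 counts against 470, 231, and 264. Its groups overlapped, since AAV5-*V1+V2* replicate 2 was below AAV5-*Gfp* replicate 3 in CPM.

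Only *Camp* passed the threshold among the granule genes. It rose from 7.74 ± 0.429 to 14.6 ± 5.68 CPM (SD, n = 3 in each group), by 0.92 on the log2 scale (adjusted p = 0.0485 in edgeR's test, standard error 0.249). The call was lost in limma-voom and without AAV5-*Gfp* replicate 1, 2, or 3 or AAV5-*V1+V2* replicate 2. Over all 16 alternatives the adjusted p of *Camp* was between 0.00401 and 0.148, and its log2 fold change between 0.55 and 1.09, the lowest being that without AAV5-*V1+V2* replicate 1. *Ltf* had a log2 fold change of 0.78 (interval 0.17 to 1.40) and *Ngp* of 0.74 (interval 0.10 to 1.37). *Mmp8* had the smallest value of the 9 genes, 0.65, with an interval from about 0 to 1.30. The adjusted p-values of the latter 3 genes were 0.0829, 0.105, and 0.144 in edgeR's test, so that none of them passed. Without AAV5-*V1+V2* replicate 1 their log2 fold changes were 0.39, 0.33, and 0.26.

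*Csf3r*, the receptor of granulocyte colony-stimulating factor that drives neutrophil production, showed the largest difference of the 9 genes. Controls gave 266, 254, and 257 counts, and AAV5-*V1+V2* gave 1235, 523, and 479. The lowest AAV5-*V1+V2* library was 1.69 times the highest AAV5-*Gfp* library, the widest gap among the 9 genes. *Csf3r* rose from 7.94 ± 0.525 to 22.4 ± 13.1 CPM (SD, n = 3 in each group), by 1.5 on the log2 scale (adjusted p = 0.0376 in edgeR's test, standard error 0.367). It lost the call in limma-voom and in 4 fits that each left out a library, namely AAV5-*Gfp* replicate 1, 2, or 3 or AAV5-*V1+V2* replicate 2. Its log2 fold change was between 0.91 (without AAV5-*V1+V2* replicate 1) and 1.76, and its adjusted p between 0.000172 and 0.13, over the 16 alternatives. *Csf3r* is also transcribed in monocytes and macrophages, whose markers were higher in the same libraries (described further on), and their part in its rise was not tested.

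*Cxcr2*, the receptor for the chemokines that draw neutrophils into tissue, was the least abundant of the genes. It had 56, 61, and 60 counts with AAV5-*Gfp* and 151, 68, and 92 counts with AAV5-*V1+V2*. The groups did not overlap, although their nearest libraries were only at 1.92 CPM (AAV5-*Gfp* replicate 3) and 2.04 CPM (AAV5-*V1+V2* replicate 2). The log2 fold change was 0.78 (interval 0.08 to 1.48) and the adjusted p 0.113 in edgeR's test, and it passed in none of the 16 alternatives, where the adjusted p was at least 0.0698. *Retnlg*, a resistin-like secreted protein of blood and marrow neutrophils, had 148, 154, and 164 counts against 401, 241, and 211. Here AAV5-*V1+V2* replicate 3 was the lowest of its group, unlike in most of the other genes, and still above each AAV5-*Gfp* library. Its log2 fold change was 0.84 (interval 0.24 to 1.44) with an adjusted p of 0.0643 in edgeR's test, and 4 of the 16 alternatives brought it below the threshold (range 0.0157 to 0.178).

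Of the 9 genes, 2 (*Csf3r* and *Camp*) were called higher, where 10.1% of all genes tested were called higher, and 0 were called lower, where 5.27% of genes were. At an unadjusted p under 0.05 in edgeR's test, 8 were higher (all but *Mmp8*), against 19.2% of genes tested, and 0 were lower, against 15.5%. In 8 of the 9 genes the treated libraries all exceeded the controls, which held for 23.4% of genes tested, and in 0 did they all fall below, against 22% of genes. All 9 fitted values were above 0, as were 50% of those tested, and 1 (*Csf3r*) was at least 2-fold higher, against 6.84%. The median log2 fold change was 0.84 over the 9 genes, with a range from 0.65 to 1.5, and -0.0003 over all genes tested. These genes share libraries and cells, so that their agreement is not that of 9 separate observations. The number called higher moved with the method, from 0 in limma-voom to 7 in DESeq2 and in edgeR's exact test. It was 0 without AAV5-*Gfp* replicate 1, 2, or 3 and without AAV5-*V1+V2* replicate 2, and 5 without AAV5-*V1+V2* replicate 1 or replicate 3, while 5 to 9 of the genes had an unadjusted p under 0.05 in these 6 fits and 7 had one in limma-voom. In the fits without AAV5-*Gfp* replicate 2 or 3, only 12 and 15 genes of any kind were called higher.

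**Figure D2:**
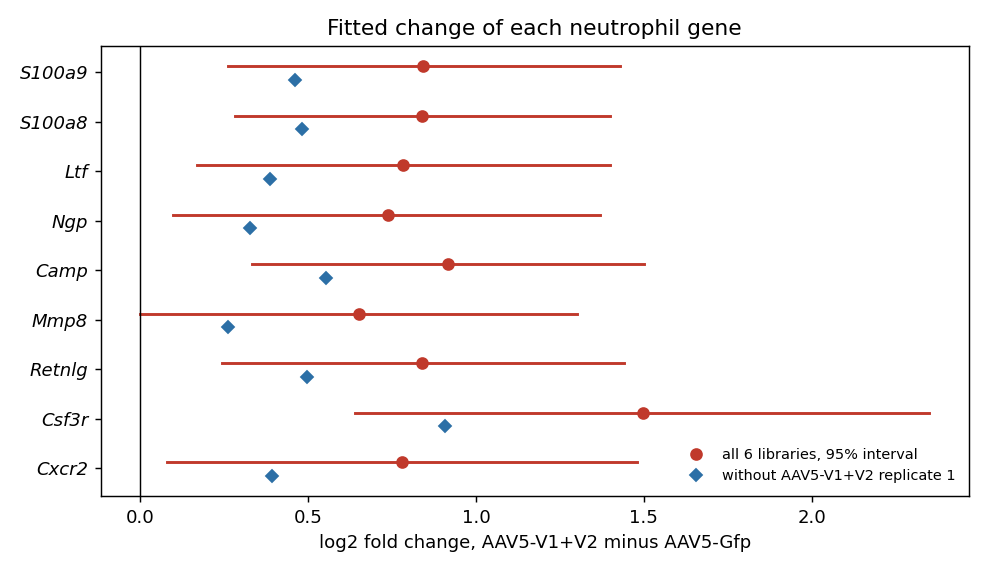
Fitted log2 fold change of AAV5-*V1+V2* minus AAV5-*Gfp* for each neutrophil gene on the horizontal axis, with the 95% interval as a line (red, all 6 libraries) and the value without AAV5-*V1+V2* replicate 1 as a blue diamond. Every value is above 0, *Csf3r* is farthest to the right at 1.5, and leaving out the library lowers each gene, to between 0.26 and 0.91.

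The size of the difference varied between libraries. Divided by the mean of AAV5-*Gfp*, AAV5-*V1+V2* replicate 1 was between 2.33 and 2.73 times higher for the 8 genes other than *Csf3r*, whereas replicate 2 was between 1.13 and 1.52 times and replicate 3 between 1.25 and 1.49 times. *Csf3r* stood above these ranges in each library, at 4.73, 1.98, and 1.76 times. Within AAV5-*V1+V2*, replicate 1 was 1.82 to 2 times the mean of the other two for the 8 genes and 2.53 times for *Csf3r*. The coefficient of variation between libraries was 4.10% to 13.2% in controls and 37.7% to 58.6% after AAV5-*V1+V2*.

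**Figure D3:**
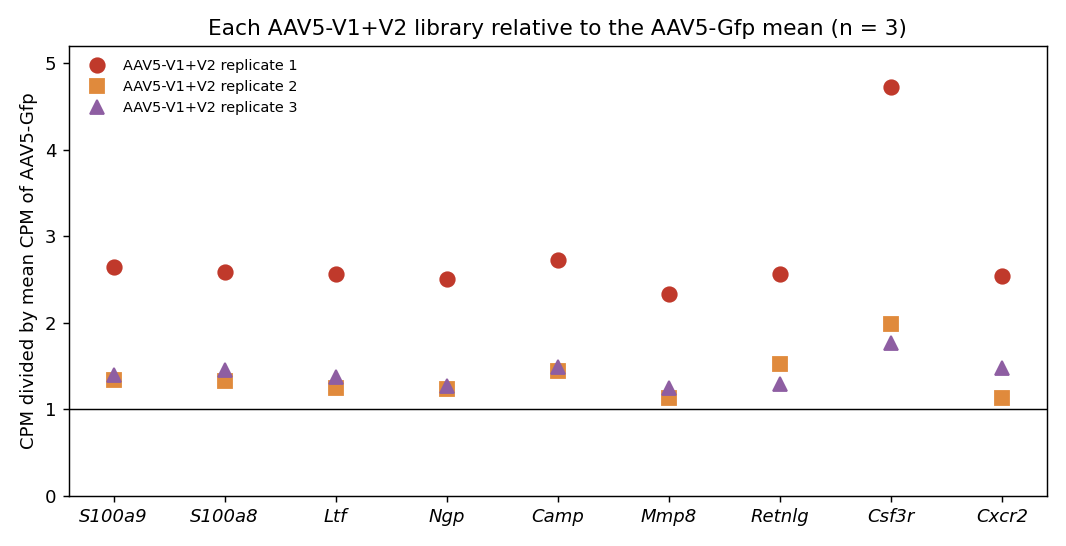
CPM of each AAV5-*V1+V2* library divided by the mean CPM of AAV5-*Gfp* (n = 3), with the line at 1 marking that mean and one color and shape for each replicate. Replicate 1 forms a band between 2.33 and 2.73 for 8 genes, with replicates 2 and 3 between 1.13 and 1.52, and *Csf3r* is above both bands.

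The genes stood in nearly the same proportions to each other. The summed CPM of the 9 genes was 141, 145, and 159 with AAV5-*Gfp* and 400.0, 199, and 208 with AAV5-*V1+V2* (replicates 1, 2, and 3). Of that sum, *S100a9* took from 27.0% to 28.0% in the 6 libraries, *S100a8* from 17.7% to 19.2%, *Ltf* from 18.1% to 20.2%, *Ngp* from 13.9% to 16.2%, and *Camp* from 4.97% to 5.60%. The exception was *Csf3r*, with 5.04% to 5.84% with AAV5-*Gfp* and 9.38%, 7.91%, and 6.71% with AAV5-*V1+V2*. The shares of *Mmp8* (3.77% to 4.42% against 3.49% to 3.70%) and *Ngp* (14.8% to 16.2% against 13.9% to 14.2%) were slightly lower in the treated libraries. Counts of *S100a9* per count of *S100a8* were 1.48 to 1.51 in controls and 1.44 to 1.52 after AAV5-*V1+V2* (exact two-sided permutation test, p = 0.9), and the mean differed by less than the spread. Counts of *Mmp8* per count of *Ltf* were 0.186 to 0.226 and 0.193 to 0.194 (exact permutation p = 0.4). *Csf3r* per count of *S100a8* was 0.269 to 0.311 in controls and 0.350 to 0.529 after AAV5-*V1+V2*, and per count of *Cxcr2* it was 4.16 to 4.75 and 5.21 to 8.18. Neither of these *Csf3r* ratios overlapped between groups, and both had an exact permutation p of 0.1, the smallest that 3 libraries against 3 allow. The ratios, 8 in all, were chosen after the values were seen, and with adjustment over 8 none could pass.

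**Figure D4:**
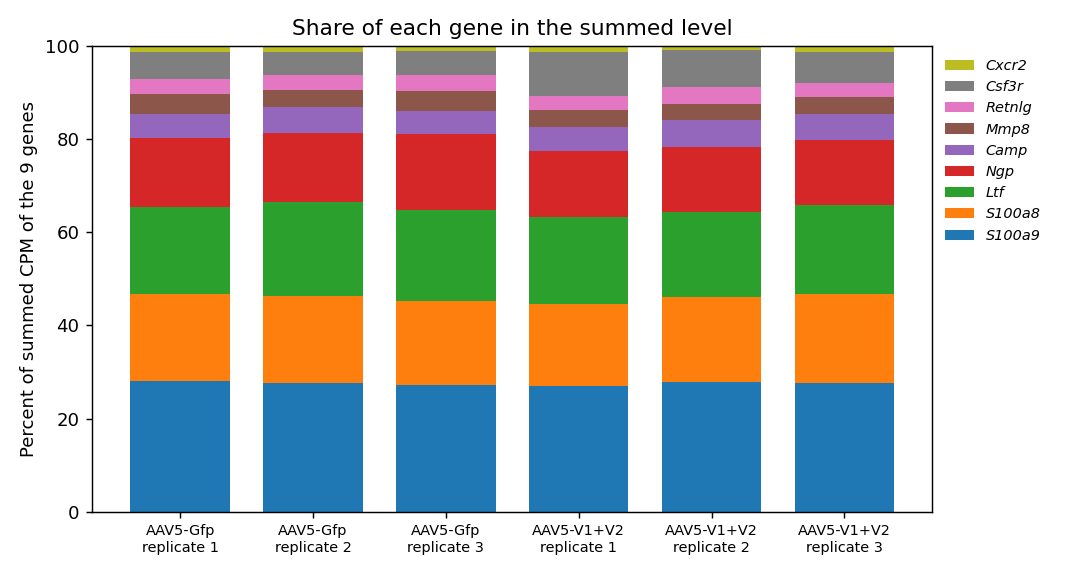
Share of each neutrophil gene in the summed CPM of the 9 genes (vertical axis, percent) for each of the 6 libraries. The stacks are alike, with *S100a9* at 27.0% to 28.0% throughout, and only the gray *Csf3r* segment is thicker in all 3 AAV5-*V1+V2* libraries (6.71% to 9.38%) than with AAV5-*Gfp* (5.04% to 5.84%).

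Divided by the length of the annotated exons, which makes genes comparable, calprotectin RNA was by far the most abundant in the control ganglia. With AAV5-*Gfp*, *S100a9* was at 78.6 ± 3.96 CPM per kilobase (SD, n = 3) and *S100a8* at 39.6 ± 1.62. Next came *Ngp* (18.6 ± 2.10), *Camp* (10.2 ± 0.565), *Ltf* (8.41 ± 0.696), and *Retnlg* (8.03 ± 0.731), of which *Ltf* and *Retnlg* differed by less than their spread. *Mmp8* (2.53 ± 0.335) and *Csf3r* (2.20 ± 0.145) also differed by no more than the spread, and *Cxcr2* was lowest at 0.593 ± 0.0334. With AAV5-*V1+V2* the order of the means was alike, apart from *Csf3r* at 6.21 ± 3.64, above *Mmp8* at 3.98 ± 1.67, with overlapping spreads. Taking the longest transcript as the length put *S100a8* at 55.1 and *Ltf* at 10.6 CPM per kilobase with AAV5-*Gfp*, so that the order of *Ltf* and *Camp* depends on the length used.

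Other genes of neutrophils were taken from lists compiled by hand. The azurophil granule genes of early precursors, 5 in all, had a median log2 fold change of 0.75. Of them, 0 were called higher or lower, against 10.1% and 5.27% of genes tested. At an unadjusted p under 0.05 in edgeR's test 1 was higher, against 19.2%. *Elane*, the gene of neutrophil elastase, had 40, 40, and 37 counts with AAV5-*Gfp* and 114, 54, and 66 with AAV5-*V1+V2*, which did not overlap (log2 fold change 0.97, adjusted p = 0.0695). *Mpo*, for myeloperoxidase, had 147, 194, and 199 counts against 523, 178, and 227, so that replicate 1 was far above the controls and replicate 2 within their range. Counts of *Prtn3*, for proteinase 3, were 28, 39, and 43 against 111, 42, and 42, with replicate 1 alone above the controls. The summed level of this list was 9.17 to 12.6 CPM with AAV5-*Gfp* and 27.0, 11.7, and 12.3 CPM with AAV5-*V1+V2*.

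Of 13 other genes of specific and gelatinase granules, 5 were called higher and 0 lower, against 10.1% and 5.27% of genes tested. The median log2 fold change was 0.93. The 5 were *Cybb*, *Cyba*, *Lyz2*, *Hp*, and *Orm1*. *Cybb* and *Cyba* encode the membrane subunits of the phagocyte NADPH oxidase and *Lyz2* encodes lysozyme, and macrophages express all of these. *Cybb* had 524, 537, and 355 counts with AAV5-*Gfp* and 6211, 2466, and 1813 with AAV5-*V1+V2* (log2 fold change 2.87, adjusted p = 0.016 in edgeR's test). *Lyz2* (log2 fold change 2.76, adjusted p = 0.0167) and *Cyba* (2.62, adjusted p = 0.0191) were close to it. *Hp*, haptoglobin, rose by 1.59 (adjusted p = 0.0432) and *Orm1*, an acute-phase glycoprotein at only 1 to 5 counts with AAV5-*Gfp*, by 2.87 (adjusted p = 0.0317). At such counts *Orm1* passed the filter only through the AAV5-*V1+V2* libraries. Other granule genes of this list had smaller values. *Lcn2*, lipocalin, had a log2 fold change of 0.78 (adjusted p = 0.135), *Mmp9*, gelatinase, of 0.89 (adjusted p = 0.102), *Chil3* of 0.93 (adjusted p = 0.0611), and *Cd177* of 0.71 (adjusted p = 0.141), and none of them passed. *Olfm4*, which marks a subset of neutrophils, was at 0.47 (adjusted p = 0.209).

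Among surface, signalling, and stefin genes, 21 of 26 listed passed the filter, with 8 called higher, 0 lower, and a median log2 fold change of 1.09. *Clec4e*, a lectin receptor of activated myeloid cells, went from 12, 11, and 17 counts to 1257, 428, and 228 (log2 fold change 5.54, adjusted p = 0.0144 in edgeR's test). *Acod1*, which makes itaconate in activated macrophages and neutrophils, went from 4, 1, and 1 counts to 608, 192, and 88 (log2 fold change 7.10, adjusted p = 0.0144). With fewer than 10 counts in each AAV5-*Gfp* library, it passed the filter only through the AAV5-*V1+V2* libraries. *Clec4d* (log2 fold change 3.46) and *Il1b* (3.06) were called as well. *Ly6g*, the surface gene by which mouse neutrophils are usually defined, had 12, 25, and 31 counts with AAV5-*Gfp* and 48, 26, and 20 with AAV5-*V1+V2*, and its groups overlapped (log2 fold change 0.43, adjusted p = 0.525). *Cxcr1*, the other receptor of this chemokine family, had 0 counts in each AAV5-*Gfp* library and 1 to 2 with AAV5-*V1+V2*. Other genes of this list were near or below 0, among them *Asprv1* (0.12), *Il1r2* (-0.06), *Mrgpra2a* (-0.25), and *Mrgpra2b* (-0.18). *Mrgpra2b* was at 35.8 ± 10.2 CPM with AAV5-*Gfp* (SD, n = 3), and which cells it came from was not tested. *G0s2*, an inhibitor of fat breakdown, went the other way, with 205, 188, and 166 counts against 93, 126, and 167 (log2 fold change -0.57, adjusted p = 0.1). Of the stefins, *Stfa1* was at 0 to 1 counts in the 6 libraries and *Stfa2* at 0 to 4. The calls of these lists were also lost when a control was left out: 0 genes of the granule and surface lists passed without AAV5-*Gfp* replicate 1, 2, or 3, where 7 to 8 and 9 to 11 of them were higher at an unadjusted p under 0.05 in edgeR's test. Without AAV5-*V1+V2* replicate 2, 5 surface genes passed, and limma-voom called 3.

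*Csf3* and the *Cxcl* ligands of *Cxcr2* were scarce in the ganglia. Of 13 ligands and cytokines found in the table, 3 passed the filter. *Csf3*, the ligand of *Csf3r*, had 0 counts in each AAV5-*Gfp* library and 2, 1, and 0 with AAV5-*V1+V2*, so that it was at or below 3 counts in each library. Among the *Cxcr2* ligands, *Cxcl1* had 9, 6, and 8 counts against 40, 18, and 6, *Cxcl2* had 0, 1, and 2 against 14, 18, and 3, and *Cxcl5* had 9, 5, and 4 against 22, 9, and 9, and none was tested. *Ppbp*, a further ligand made by platelets, was more abundant, with 56, 54, and 98 counts against 172, 90, and 127. Its log2 fold change was 0.86 (adjusted p = 0.121 in edgeR's test). *Anxa1*, an inhibitor of neutrophil entry, rose by 0.94 (adjusted p = 0.0203) and *Hebp1*, a source of a chemotactic peptide, by 0.66 (adjusted p = 0.0468). *Tlr4*, a receptor of calprotectin, was the 1 gene called of the 6 receptors and partners, where 10.1% of genes tested were called higher. Its log2 fold change was 0.46 (adjusted p = 0.0225), whereas *Ager*, another calprotectin receptor, was at 0.02 (adjusted p = 0.975). The calls of *Anxa1*, *Hebp1*, and *Tlr4* were lost without AAV5-*Gfp* replicate 1, 2, or 3, and 1 of the ligand calls also without AAV5-*V1+V2* replicate 1 or replicate 2 and in limma-voom. *Myd88* (0.67, adjusted p = 0.12) and *Ly96* (0.52, adjusted p = 0.218), partners of *Tlr4*, did not pass.

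Transcription factors of granulocyte development had a median log2 fold change of 1.19. Of 9, 3 were called higher and 0 lower, against 10.1% and 5.27% of genes tested. *Spi1*, which encodes PU.1 and also acts in macrophages and B cells, rose from 163, 172, and 122 counts to 858, 400, and 344 (log2 fold change 1.79, adjusted p = 0.0237 in edgeR's test). *Irf8*, which favors monocytes over granulocytes, rose by 2.56 (adjusted p = 0.0146) and *Cebpd* by 0.63 (adjusted p = 0.0197). *Cebpe*, the factor needed for specific granules, had 9, 15, and 20 counts with AAV5-*Gfp* and 40, 18, and 24 with AAV5-*V1+V2*, which overlapped in CPM, with a log2 fold change of 0.86 (adjusted p = 0.189). *Gfi1*, a repressor that favors granulocytes, was at 1.49 (adjusted p = 0.0516). As with the granule lists, 0 of these factors passed without AAV5-*Gfp* replicate 1, 2, or 3, with 7 to 8 at an unadjusted p under 0.05 in edgeR's test, whereas 7 passed without AAV5-*V1+V2* replicate 3.

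Markers of macrophages, B cells, and T cells were higher in the same libraries, with larger medians than that of the neutrophil genes. Of 14 macrophage and monocyte markers, 11 were called higher (median log2 fold change 1.66), and their summed level was 145 to 199 CPM with AAV5-*Gfp* and 586, 425, and 316 CPM with AAV5-*V1+V2*. All 7 B cell markers (median 3.07) and 6 of 7 T cell markers (median 3.33) were called higher. Among macrophage genes, the complement genes *C1qa* (1.93), *C1qb* (1.70), and *C1qc* (1.78), *Ly6c2* (2.37), and *Aif1* (1.66) had adjusted p-values of at most 0.0155 in edgeR's test. *Ms4a1*, which encodes CD20, was at 5.49, *Cd79b* at 3.24, *Pax5* at 2.98, and *Cd79a* at 2.75, with adjusted p-values of at most 0.0144. Of the T cell genes, *Cd3e* (3.88), *Cd3g* (3.74), *Cd4* (3.33), and *Lck* (2.53) had adjusted p-values of at most 0.0197. With AAV5-*Gfp*, *Cd3e* had 20, 9, and 6 counts, *Cd3g* 31, 4, and 4, and *Ms4a1* 12, 12, and 4. These genes, like *Cd3d*, *Cd8a*, and *Cd8b1*, were below 10 counts in some AAV5-*Gfp* libraries and passed the filter through the AAV5-*V1+V2* libraries. The T cell median includes such genes. Summed B cell markers were at 11.5 to 18.1 CPM against 203, 91.2, and 83.3 CPM, and T cell markers at 3.17 to 9.26 CPM against 71.1, 37.5, and 31.9 CPM. Calls in the macrophage, B cell, and T cell lists fell to 0 without AAV5-*Gfp* replicate 2 or replicate 3, and to 4, 5, and 7 without its replicate 1. Of erythroid genes 0 of 11 (median 0.38) and of platelet genes 0 of 7 (median 0.17) were called in either direction. Of all genes tested, 10.1% were called higher and 5.27% lower. At an unadjusted p under 0.05 in edgeR's test, 4 erythroid and 2 platelet genes were higher, against 19.2% of genes tested. DESeq2 and edgeR's exact test each called 2 erythroid genes higher, and total counts only called 1. The smallest adjusted p-values in edgeR's test were, for erythroid genes, those of *Klf1* (1.06, adjusted p = 0.0578), *Slc4a1* (0.49, adjusted p = 0.0817), and *Rhd* (0.56, adjusted p = 0.0855). For platelet genes they were those of *Pf4* (0.59, adjusted p = 0.0643), *Gp9* (0.95, adjusted p = 0.123), and *Gp1ba* (0.65, adjusted p = 0.151). The summed erythroid level overlapped between groups, at 920.0 to 1090 CPM and 1300, 864, and 1030 CPM.

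Marrow and bone lie next to the ganglion, and their markers were therefore listed too. Of 7 genes of B cell precursors in marrow, 2 passed the filter. *Vpreb3* rose from 9, 7, and 9 counts to 49, 27, and 33 (log2 fold change 2.07, adjusted p = 0.0158 in edgeR's test), and *Dntt* had 6, 13, and 8 counts against 57, 19, and 21 (1.81, adjusted p = 0.0621). With fewer than 10 counts in each AAV5-*Gfp* library, *Vpreb3* passed the filter only through the AAV5-*V1+V2* libraries. *Dntt*, below 10 counts in AAV5-*Gfp* replicates 1 and 3, passed it through those libraries as well. Among the genes not tested, *Vpreb1* had 1, 5, and 6 counts against 13, 8, and 7. *Igll1* overlapped between groups, with 6, 3, and 5 counts against 11, 6, and 3. *Rag1*, *Rag2*, and *Vpreb2* were at or below 3 counts in each library. The summed level of the 7 genes was 0.713 to 0.929 CPM with AAV5-*Gfp* and 4.01, 1.86, and 1.92 CPM with AAV5-*V1+V2*. Among 9 bone and cartilage genes, 1 was called higher, against 10.1% of genes tested. It was *Acp5*, an acid phosphatase of osteoclasts and macrophages (log2 fold change 2.49, adjusted p = 0.0157). The summed level of the 9 genes was 21.9 to 28.4 CPM against 68.0, 39.0, and 34.0 CPM. Of these sums, *Acp5* alone took 2.73 ± 0.489 and 15.4 ± 8.89 CPM (SD, n = 3 each). Groups did not overlap in *Acp5* and *Acan* (0.52, adjusted p = 0.123). Of all genes tested, 23.4% had each AAV5-*V1+V2* library above the controls. The other bone and cartilage genes overlapped, such as *Ctsk* (0.46, adjusted p = 0.0947). *Bglap* had 5, 26, and 16 counts with AAV5-*Gfp* and 139, 41, and 16 with AAV5-*V1+V2*, and *Dmp1* had 11, 41, and 18 against 94, 10, and 19. AAV5-*V1+V2* replicate 1 was also the highest library for *Bglap2* (61 counts) and *Sp7* (41 counts). Eosinophil, basophil, and mast cell genes had a median of 0.36, with 1 of 11 called higher, against 10.1% of genes tested. It was *Prg2*, an eosinophil granule protein, at 1.28 with an adjusted p of 0.0489. *Ear1* (1.25, adjusted p = 0.0514) and *Epx* (1.14, adjusted p = 0.0586), also of eosinophil granules, did not pass. Nor did *Ear2* (1.18, adjusted p = 0.0731) and *Ear6* (1.03, adjusted p = 0.12). In 5 of the 11 genes, *Prg2*, *Ear1*, *Epx*, *Ear2*, and *Ear6*, each AAV5-*V1+V2* library was above the controls, against 23.4% of genes tested. The mast cell genes *Cpa3* (-0.16), *Mcpt4* (-0.30), *Tpsb2* (-0.04), and *Cma1* (0.12) were near or below 0, and their groups overlapped. *Siglecf* (0.36) and *Mcpt8* (0.33) overlapped between groups as well. The calls of *Vpreb3*, *Acp5*, and *Prg2* were lost without AAV5-*Gfp* replicate 1, 2, or 3. That of *Prg2* was also lost without AAV5-*V1+V2* replicate 2, in limma-voom, and with robust empirical Bayes. Without AAV5-*V1+V2* replicate 3, 2 precursor genes, 3 bone genes, and 4 genes of the eosinophil, basophil, and mast cell list passed. The part of marrow, of bone, and of these cells in the neutrophil genes was not tested.

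Sensory neuron markers checked the labelled tissue. The 12 markers summed to 9710 to 10400 CPM in controls and to 6320, 8770, and 9150 CPM after AAV5-*V1+V2*, and none was at 0. AAV5-*V1+V2* replicate 1, the library highest in neutrophil genes, was lowest in neuron markers. *Rbfox3*, the gene of the neuronal marker NeuN, was called lower, with 2813, 3196, and 3950 counts against 1335, 1914, and 2136 (log2 fold change -0.93, adjusted p = 0.0256 in edgeR's test). *Scn10a*, a sodium channel of nociceptors, was at -0.59 (adjusted p = 0.0542) and *Isl1* at -0.51 (adjusted p = 0.0891). *Rbfox3* was the 1 gene called among the 12, where 5.27% of genes tested were called lower. At an unadjusted p under 0.05 in edgeR's test, 4 of the 12 were lower, against 15.5% of genes tested. In 7 of the 12 each AAV5-*V1+V2* library was below the controls, against 22%. Of the 12, 0 were called without AAV5-*Gfp* replicate 1, 2, or 3 or without AAV5-*V1+V2* replicate 2. Without AAV5-*V1+V2* replicate 1 and replicate 3, 4 and 3 were called. Summed satellite glia and Schwann cell markers overlapped between groups, at 4000 to 4840 CPM and 4250 to 4580 CPM, and 0 of 10 were called, with *Kcnj10* at -0.29 (adjusted p = 0.11) and *Prx* at 0.18 (adjusted p = 0.465).

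**Figure D5:**
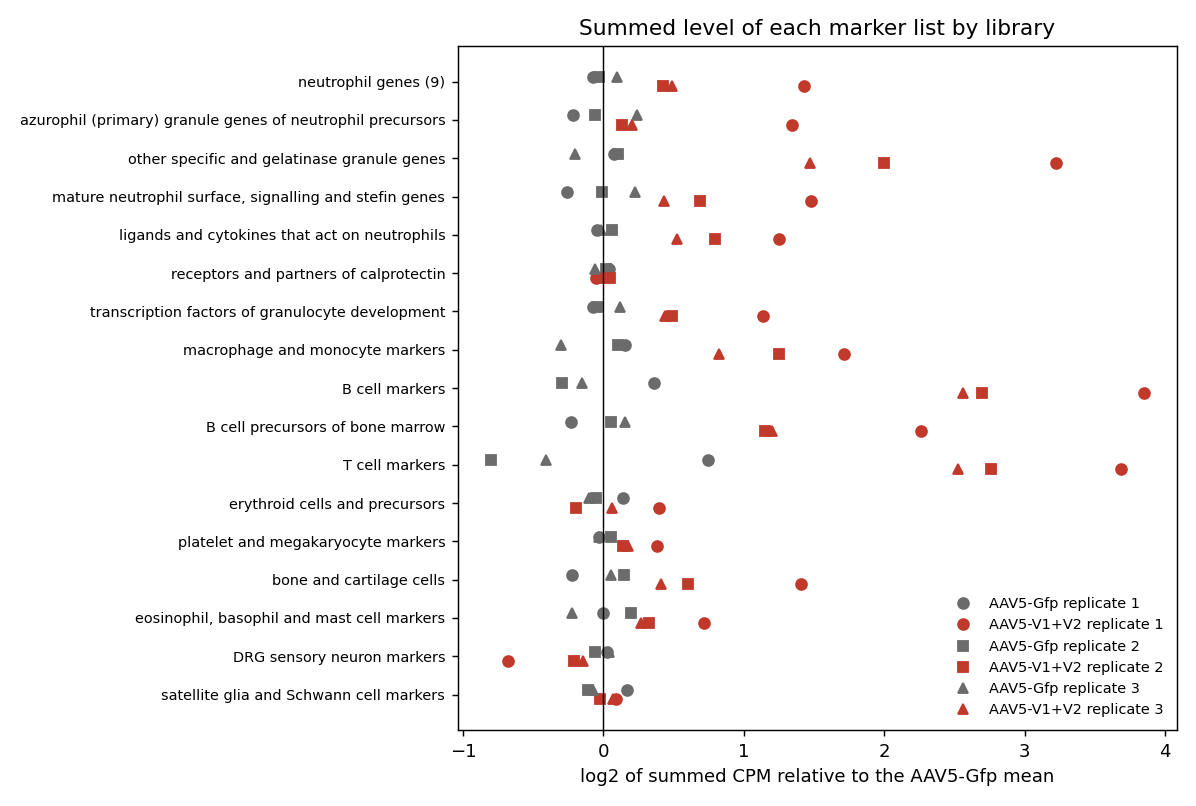
Log2 of the summed CPM of each marker list relative to the mean of AAV5-*Gfp* (horizontal axis), with AAV5-*Gfp* in gray, AAV5-*V1+V2* in red, and one symbol shape for each replicate number. AAV5-*V1+V2* replicate 1 is farthest to the right for the 9 neutrophil genes and for each leukocyte list, and farthest to the left for neuron markers. The B and T cell lists lie farther right than the neutrophil genes in each AAV5-*V1+V2* library.

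Across the 6 libraries, the log2 CPM of each of the 9 genes correlated with their mean standardized profile at a Pearson r between 0.979 and 0.9994. The libraries share 2 groups and 1 high library, so that such values describe the pattern and carry no test, and 239 other genes had an r over 0.98. The 5 genes outside the list with the highest r were *Rsbn1l* (0.9991), *Gpr141* (0.9991), *Cers6* (0.9989), *Exoc2* (0.9987), and *Zfp292* (0.9986). *Gpr141*, an orphan receptor, went from 130, 153, and 161 counts to 928, 264, and 280, a log2 fold change of 1.70 (adjusted p = 0.059 in edgeR's test). *Cers6*, a ceramide synthase, had 1611, 1812, and 1813 counts against 5339, 2501, and 2588, a log2 fold change of 0.96 (adjusted p = 0.0645). The other three had log2 fold changes of 0.33, 0.09, and 0.25, and none of the 5 passed the threshold.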

How the data were processed

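RNA sequencing of microinjected DRGs gave 6 libraries, which were grouped by the treatment in their labels. In 1 deposited table, values were unnormalized read counts by gene symbol. Stranded total RNA libraries were used, and the submitters' processing notes name GRCm38 and mm10. The aligner, counter, annotation, and strand setting are not given in the sources used here. The members and lists were chosen with earlier results of these data known.

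Genes were filtered by filterByExpr with a minimum count of 10, scaled by TMM, and tested in R 4.3.3 with edgeR 4.0.16 (glmQLFit, glmQLFTest). *Orm1*, *Acod1*, *Vpreb3*, and *Gp9* were below that count in each AAV5-*Gfp* library and passed the filter only through the AAV5-*V1+V2* libraries. Other list genes were below it in some AAV5-*Gfp* libraries and also passed through the AAV5-*V1+V2* libraries. Among them were *Ms4a1*, *Dntt*, *Cd3d*, *Cd3e*, *Cd3g*, *Cd8a*, *Cd8b1*, *Gfi1*, *Cebpe*, *Fpr2*, and *Trem1*. All of these still enter the counts and medians of their lists. Standard errors are the absolute coefficient over the square root of F, and 95% intervals use 7.39 degrees of freedom. The calculations were tested on simulated data. Alternatives covered normalization, filters, DESeq2 1.42.0, limma-voom (limma 3.58.1), edgeR's exact test, a replicate block, thresholds, and leaving out each library. Exon lengths came from GENCODE M21. Within groups, chi-square values per degree of freedom between libraries were 8.27 to 48.9, so none was a copy of another. The rule for named genes took all members, from each list the 3 genes with the smallest p and up to 5 called ones, and the 5 genes with the most similar profile. Some genes it took are not reported here. Other list genes named were chosen after their values were seen. Protein sequences were not used here. *Il36g* had no row under that symbol.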

Additional observations from a re-analysis of the deposited data

How the results depend on the processing

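All 9 genes stayed higher with AAV5-*V1+V2* in each of 16 alternatives. The number of them called higher, 2, was 4 with total counts only and with the replicate block, 5 without a filter, 7 with DESeq2 and with edgeR's exact test, 0 with limma-voom, 6 at an adjusted p under 0.1, and 8 at an unadjusted p under 0.05. Leaving out each library gave 0 to 5 of the 9 genes, 12 to 2474 genes higher, and 0 to 1446 genes lower, against 1872 and 980 with all libraries. At an unadjusted p under 0.05, 5 to 9 of the 9 genes were higher in those fits. DESeq2 called 1606 genes lower. The threshold moved the counts by its construction, to 2898 higher and 2030 lower genes at an adjusted p under 0.1, and 3577 and 2878 at an unadjusted p under 0.05. The other causes were not tested.

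Same-numbered libraries deviated together only weakly (correlations of 0.036, 0.0658, and 0.107), so the numbers are not taken to pair the libraries. With the replicate block, 4 of the 9 genes were called (*S100a8*, *S100a9*, *Csf3r*, and *Camp*), along with 2118 higher and 1341 lower genes overall. Of 144 recomputed fold changes of the 9 genes, 111 kept their side of the threshold, 23 newly passed, 10 no longer passed, and none reversed. The level per kilobase of *S100a8* with AAV5-*V1+V2* was 98.7 with the longest transcript. At this depth, *Csf3*, *Cxcr1*, and the stefins were too few to compare.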
